A study of Mus musculus with 18 samples.

Results

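The 32 genes described here are expressed by the endothelium, the inner cell layer of blood and lymph vessels, or steer the growth of vessels. They are the vascular endothelial growth factor (VEGF) receptors Kdr, Flt1 and Flt4, the angiopoietin and Tie genes Tek, Tie1, Angpt2 and Ptprb, and the junction and surface genes Pecam1, Cdh5, Esam, Cldn5, Emcn, Eng, Robo4 and Mmrn2. The others are the Notch genes Notch4 and Dll4, S1pr1, Aplnr and Ramp2 of G protein-coupled signalling, the transcription factors Erg, Fli1, Ets1, Sox7, Sox17 and Sox18, the vessel function genes Nos3, Vwf, Plvap, Gpihbp1 and Egfl7, and Lyve1. Members were taken by symbol, and each of the 32 matched 1 of the 41388 Ensembl genes in the count files. All 32 passed the filter on low counts in every fit, with counts from 72 (Angpt2) to 18984 (Ptprb) in a library.

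RNA was sequenced from gastrocnemius, a calf muscle made mostly of fast fibres, and from soleus, where slow fibres are common. Mice aged 12 weeks, on chow and fasted for 4 h, were either controls or knockouts. The controls carried loxP sites in Mbtps1, the gene of Site-1 Protease. The knockouts carried this floxed allele together with HSA-Cre, whose promoter, that of human skeletal actin, switches the recombinase on in muscle fibres and not in endothelium. By their titles there were 5 control and 4 knockout libraries of each muscle, whereas the series text states 4 a group. The gastrocnemius controls are libraries 1, 3, 4, 5 and 8 and the gastrocnemius knockouts are 2, 6, 7 and 9. The soleus controls are libraries 34, 36, 37, 38 and 41 and the soleus knockouts are 35, 39, 40 and 42. Values below are given in these orders. No group carried Cre without the floxed allele, so an effect of the recombinase and an effect of losing the protease cannot be told apart. Nothing in the labels says whether the libraries came from separate mice, or whether the muscles came from the same mice, so the p-values measure the spread between these libraries, which may be technical.

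Endothelial cells line every capillary around a muscle fibre. VEGF made by the fibres binds Kdr on these cells and drives sprouting, Flt1 binds the same ligand and limits it, and the receptor Tek on the same cells keeps vessels stable when it binds Angpt1. Slow, oxidative fibres are known to be wrapped by more capillaries than fast, glycolytic ones. ETS factors such as Erg, Fli1 and Ets1, and SoxF factors (Sox7, Sox17, Sox18), are the transcription factors that maintain endothelial identity.

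Library totals ran from 39.0 to 78.2 M counts. The targeted gene, Mbtps1, was not lower in libraries labelled knockout, at 34.7 to 42.8 CPM (counts scaled to library size) against 29.6 to 34.9 in gastrocnemius controls, and at 31.0 to 36.3 against 30.5 to 34.4 in soleus controls. Whole-gene counts do not check a deletion limited to part of a gene, so directions below are those of libraries labelled knockout. The muscles matched their labels: summed slow-fibre markers averaged 1130 CPM in gastrocnemius controls and 20700 CPM in soleus controls, and fast-fibre markers 142000 and 21900 CPM.

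All members were detected in all 18 libraries. Per kilobase of gene length, Cdh5 (VE-cadherin, the adhesion molecule of endothelial junctions) had the highest level of the 32 in each of the 4 groups, with 27.9 ± 1.49 CPM per kb (SD, n = 5) in gastrocnemius controls and 32.3 ± 1.45 (SD, n = 5) in soleus controls. Next came Ptprb (the vascular phosphatase VE-PTP) at 13.4 ± 0.908 CPM per kb in gastrocnemius controls, Eng (endoglin) at 12.3 ± 1.28, S1pr1 (a sphingosine 1-phosphate receptor) at 12.2 ± 2.58, Sox18 at 11.2 ± 2.71 and Pecam1 (CD31) at 10.1 ± 0.489. Eng, S1pr1 and Sox18 lay within 1 SD of each other, whereas Cdh5 stood apart. The lowest were Flt4, the receptor of lymphatic VEGF-C, at 1.49 ± 0.207 CPM per kb, Emcn (endomucin) at 1.06 ± 0.197 and Angpt2, a Tek ligand stored by endothelium, at 0.717 ± 0.151. The first 6 places and the last place were taken by the same genes in soleus controls. Egfl7 moved from place 13 to place 9, and Kdr from 18 to 12, while Plvap went from 9 to 16. Within a group the members varied by a median coefficient of variation of 12.2% in gastrocnemius controls and 11.4% in soleus controls, and of 16.2% and 16.6% in the corresponding knockouts. The most variable member was Aplnr among the soleus knockouts (68.7%).

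**Figure D1:**
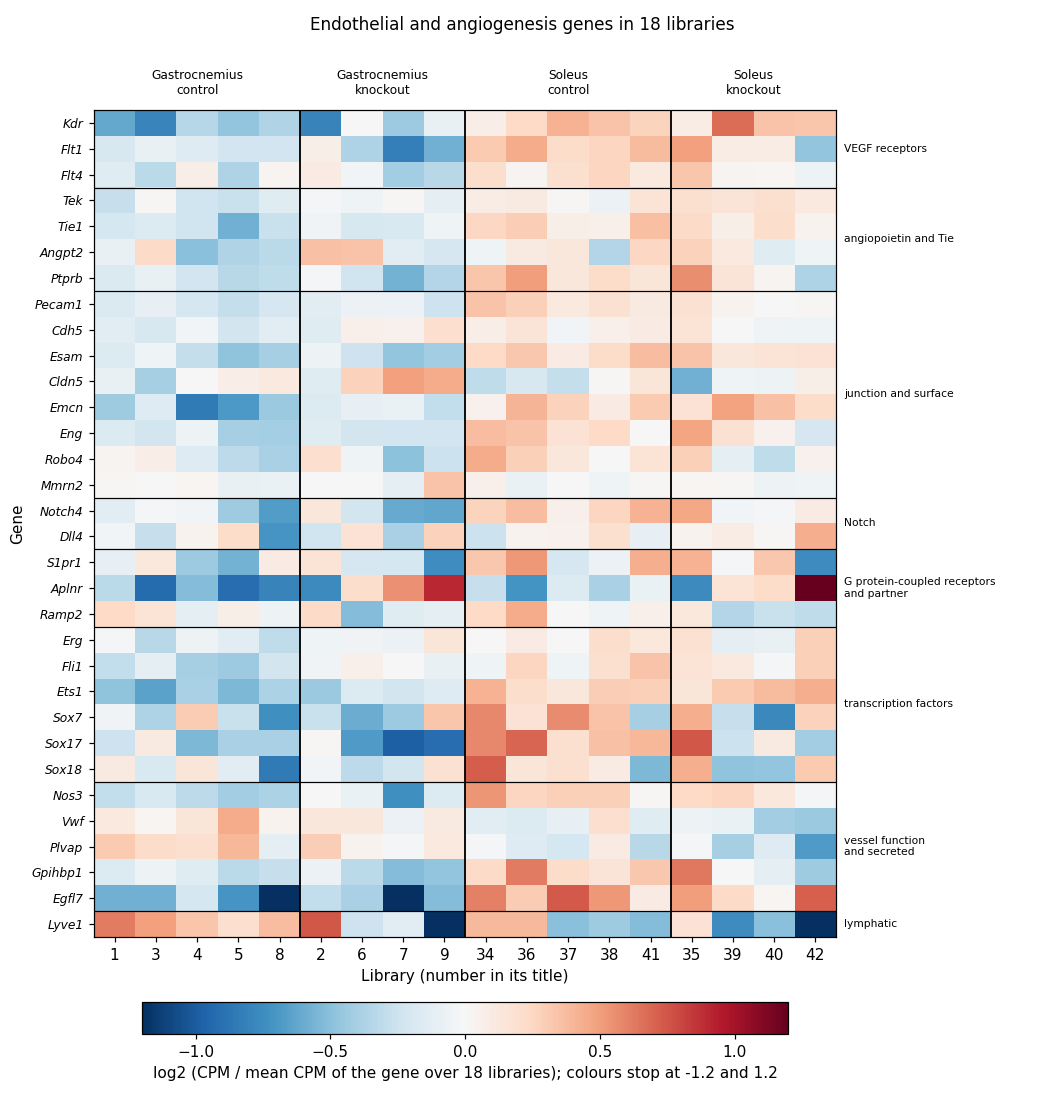
Level of each of the 32 genes (rows, grouped by role) in each of the 18 libraries (columns), as log2 of CPM over the gene's mean of all libraries. Most rows are blue in gastrocnemius and red in soleus, Plvap and Vwf show the opposite, and Aplnr stands out in knockout libraries 9 and 42.

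Soleus was compared with gastrocnemius first in controls. Of the 32 members, 20 were higher in soleus and 1 was lower by edgeR's quasi-likelihood test at an adjusted p under 0.05, which is 65.6% of them. Across all 18494 genes tested 49.3% were called, 27.4% higher and 21.9% lower. The median log2 fold change of the members was 0.39 and that of all genes 0.08. For 16 members every soleus control lay above every gastrocnemius control, and for none was it the reverse. Of all genes, 36.7% had control groups that did not overlap, 19.7% with soleus above and 17% with soleus below. The summed CPM of the members was 1030 ± 46.6 (SD, n = 5) in gastrocnemius controls and 1360 ± 68.6 (SD, n = 5) in soleus controls. In bulk tissue, fewer endothelial cells and less RNA per endothelial cell cannot be told apart.

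The VEGF receptors were all higher in soleus controls. Kdr (VEGFR2), the main signalling receptor, read 33.7, 29.7, 40.6, 37.0 and 40.0 CPM in the gastrocnemius controls and 54.6, 60.9, 68.7, 65.5 and 62 CPM in the soleus controls. The groups did not overlap, and the log2 fold change was 0.78 (SE 0.13), or 1.72-fold, with an edgeR adjusted p = 9.04e-05. Flt1 averaged 108 ± 4.76 and 153 ± 9.63 CPM (SD, n = 5 each), a log2 fold change of 0.50 (SE 0.15), also without overlap. Flt4 differed least, at 0.30 (SE 0.11), and its groups overlapped.

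In the angiopoietin and Tie group 3 of 4 were higher. Tie1, an orphan partner of Tek, averaged 36.1 ± 3.85 CPM in gastrocnemius controls and 50.9 ± 4.72 in soleus controls (SD, n = 5 each), with a log2 fold change of 0.50 (SE 0.08). Ptprb, which dampens Tek signalling, gave the same log2 fold change of 0.50 (SE 0.13), and Tek itself 0.24 (SE 0.06). Angpt2 did not pass, at 0.22 with a 95% interval from -0.12 to 0.56.

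Of the 8 junction and surface genes 6 were higher. Emcn, a sialomucin of capillary and venous endothelium, read 6.00, 7.25, 4.48, 4.99 and 5.92 CPM in gastrocnemius controls and 8.37, 10.7, 9.77, 8.65 and 10 CPM in soleus controls. The lowest soleus value was above the highest gastrocnemius value, and the log2 fold change was 0.73 (SE 0.11; edgeR adjusted p = 1.42e-05). Esam, a tight-junction adhesion molecule, read 24.7, 26.7, 22.8, 19.9 and 21.1 CPM against 32.7, 34.6, 29.7, 32.3 and 35.8 CPM. Its groups were also apart, with a log2 fold change of 0.52 (SE 0.09; edgeR adjusted p = 3.89e-05).

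The defining junction genes differed less. Pecam1 read 63.5, 67.0, 61.8, 58.6 and 62.2 CPM in gastrocnemius controls and 91.0, 87.2, 77.8, 81.4 and 77.2 CPM in soleus controls. The 5 soleus values were all above the gastrocnemius ones, by a log2 fold change of 0.41 (SE 0.06; edgeR adjusted p = 1.33e-05). Cdh5 read 112, 107, 120, 105 and 112 CPM against 129, 136, 120, 128 and 131 CPM. Soleus control 37 met the highest gastrocnemius value, gastrocnemius control 4, and the log2 fold change was 0.21 (SE 0.07; edgeR adjusted p = 0.0111). Eng, a co-receptor for BMP9 and TGF-beta, was higher by 0.48 (SE 0.10) and Robo4, a guidance receptor of vessels, by 0.36 (SE 0.13). Cldn5, a tight-junction claudin, gave -0.07 (95% interval -0.36 to 0.21), and Mmrn2, a matrix protein of vessels, gave 0.02 (-0.13 to 0.16). Eng shares 124 exon bases with Ak1 on the same strand, a gene with a mean count 1616% of that of Eng, so its count is uncertain to the extent that shared reads were assigned to it.

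Of the Notch pair, Notch4, an endothelial Notch receptor, was higher in soleus. It read 34.4, 36.8, 36.6, 27.9 and 23.6 CPM in gastrocnemius controls and 45.0, 48.5, 39.2, 44.8 and 50.2 CPM in soleus controls. The groups did not overlap, with a log2 fold change of 0.52 (SE 0.15; edgeR adjusted p = 0.00871). Dll4, the ligand of sprouting tip cells and arteries, gave 0.12 (95% interval -0.20 to 0.43). None of the 3 genes of G protein-coupled signalling passed by edgeR, nor did any have an unadjusted p under 0.05: S1pr1 gave 0.38 (-0.11 to 0.87), Aplnr, the apelin receptor, 0.37 (-0.41 to 1.15), and Ramp2, the partner of the adrenomedullin receptor, 0.08 (-0.18 to 0.35).

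Among the 6 transcription factors 4 were higher in soleus. Ets1 read 25.7, 23.0, 27.4, 24.7 and 27.7 CPM in gastrocnemius controls and 48.1, 41.7, 39.5, 44.2 and 43.8 CPM in soleus controls. It had the smallest adjusted p of the 32 (edgeR, 2.77e-08), with a log2 fold change of 0.76 (SE 0.08) and groups well apart. Sox17, a factor of arterial endothelium, read 11.6, 14.8, 9.5, 10.5 and 10.5 CPM against 20.5, 22.4, 15.7, 17.6 and 18.1 CPM. Its log2 fold change was 0.73 (SE 0.22; edgeR adjusted p = 0.0116), again without overlap. Fli1 was higher by 0.43 (SE 0.09) and Erg by 0.25 (SE 0.09). The other SoxF factors had estimates of 0.48 for Sox7 (95% interval -0.07 to 1.02) and 0.33 for Sox18 (-0.19 to 0.85), which did not pass.

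The vessel function genes went both ways. Egfl7, a secreted endothelial matrix protein, had the highest fold change of the 32: it read 22.1, 22.2, 28.6, 20.3 and 14.1 CPM in gastrocnemius controls and 50.3, 40.7, 55.1, 47.4 and 35.4 CPM in soleus controls. Every soleus control was above every gastrocnemius control, with a log2 fold change of 1.09 (SE 0.24), or 2.14-fold (edgeR adjusted p = 0.00151). The gene hosts the microRNA Mir126a in 73 exon bases and shares 64 exon bases with Agpat2 on the other strand, whose mean count is 24.8% of that of Egfl7. Nos3, the endothelial nitric oxide synthase, read 7.27, 7.84, 7.17, 6.69 and 6.85 CPM against 12.9, 10.7, 10.9, 10.9 and 9.01 CPM. Its groups were apart, with a log2 fold change of 0.60 (SE 0.12; edgeR adjusted p = 0.000189), and Gm15587 on the other strand, at 13.8% of its count, overlaps 1040 of its exon bases. Gpihbp1, which holds lipoprotein lipase on capillary endothelium, was higher by 0.51 (SE 0.15).

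Plvap, the protein of fenestral and caveolar diaphragms, was the 1 member lower in soleus controls. It averaged 18.1 ± 2.31 CPM in gastrocnemius and 14.4 ± 1.69 CPM in soleus (SD, n = 5 each), with overlapping groups and a log2 fold change of -0.32 (SE 0.11; edgeR adjusted p = 0.0223). Vwf (von Willebrand factor) gave -0.22 (SE 0.09; edgeR adjusted p = 0.053), and Lyve1, a hyaluronan receptor of lymphatic vessels and some macrophages, gave -0.48 (95% interval -1.22 to 0.25), and neither passed. With library totals in place of TMM scaling the median of all genes moved from 0.08 to 0.35 and that of the members from 0.39 to 0.65. The members' median lay 0.31 above that of all genes with TMM and 0.30 above it with library totals. With library totals 27 members were called, 27 higher and 0 lower, against 8386 higher and 2122 lower among all genes, and Plvap was at -0.06. The calls of 17 of the 21 members held whichever 1 library was left out. The calls of Erg and Flt4 were lost with RLE scaling (log2 fold changes 0.21 and 0.26, edgeR adjusted p = 0.0563 and 0.0543) and by DESeq2 (adjusted p = 0.0578 and 0.0557). Erg was also lost without gastrocnemius control 3 or 8, gastrocnemius knockout 7 or soleus control 38 (log2 fold change 0.21 to 0.22), and Flt4 without gastrocnemius control 3 or 5 or soleus control 38 (0.24 to 0.27). Robo4 was lost without gastrocnemius control 4, 5 or 8 or soleus control 34 or 36 (0.30 to 0.35), and Plvap without gastrocnemius control 1 or 5 or soleus control 37 or 41 (-0.30 to -0.28).

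**Figure D2:**
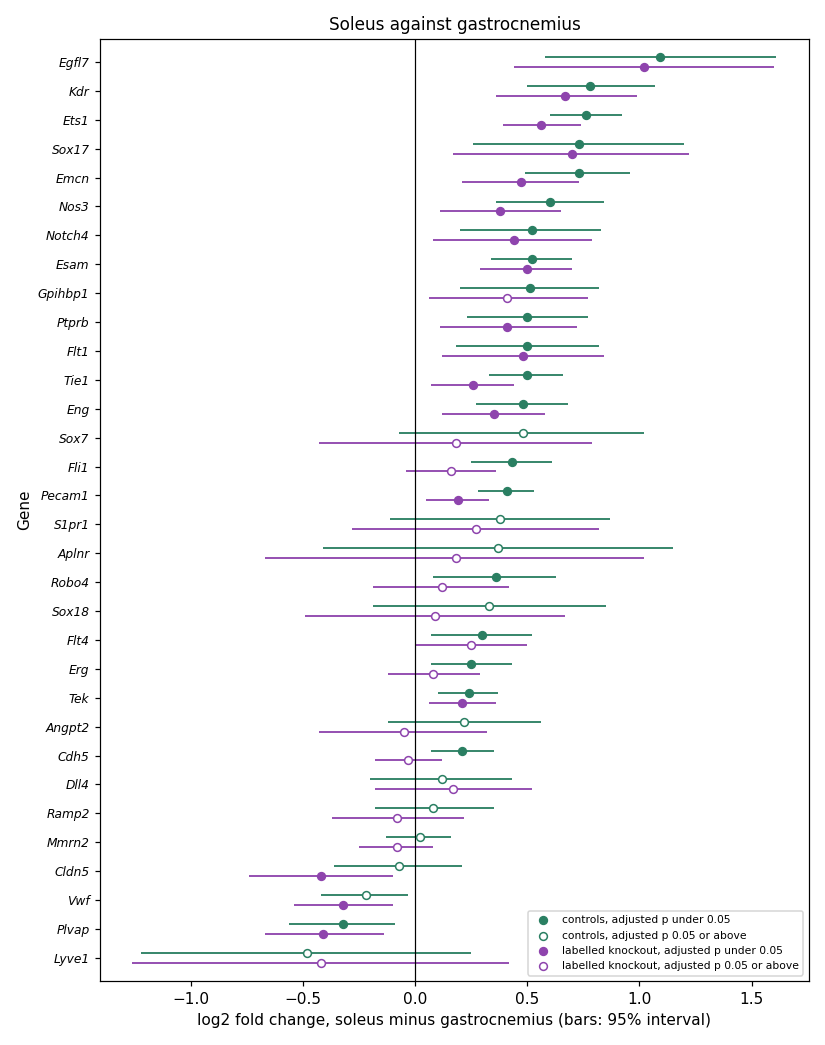
Log2 fold change of soleus over gastrocnemius for each of the 32 genes in controls (green) and in libraries labelled knockout (purple), with 95% intervals, and filled where the edgeR adjusted p is under 0.05. In controls 20 genes lie to the right of 0 and pass, with Egfl7 the furthest at 1.09, and Plvap passes on the left at -0.32.

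Promoters were read for the members that led this comparison. Of the 8 called members with the largest log2 fold change, Egfl7, Kdr, Emcn and Notch4 have entries in RefSeq's table of gene starts on GRCm38.p6, which held 17 starts of 13 members. The 250 bases before each start are shown 5′ to 3′ on the gene's strand so that a reader can see the letters searched for. Capitals mark the ETS letters AGGAAG or CGGAAG and the SOX letters AACAAT on either strand, and the marked runs do not overlap. The windows are chr2:26583615-26583864 (plus strand, of the 3 Egfl7 starts the one with fewest exon bases), chr5:75978456-75978705 (minus strand), chr3:137340828-137341077 (plus strand) and chr17:34564045-34564294 (plus strand). They lie upstream of these starts and hold 1, 3, 11 and 27 annotated exon bases in that order. The Egfl7 window lies inside the annotated gene, which spans chr2:26580014-26593120.
Egfl7: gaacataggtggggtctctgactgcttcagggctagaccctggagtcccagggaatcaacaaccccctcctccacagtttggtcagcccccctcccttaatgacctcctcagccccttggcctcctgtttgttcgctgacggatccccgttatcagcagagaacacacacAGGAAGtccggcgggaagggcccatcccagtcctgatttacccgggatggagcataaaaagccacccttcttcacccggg
Kdr: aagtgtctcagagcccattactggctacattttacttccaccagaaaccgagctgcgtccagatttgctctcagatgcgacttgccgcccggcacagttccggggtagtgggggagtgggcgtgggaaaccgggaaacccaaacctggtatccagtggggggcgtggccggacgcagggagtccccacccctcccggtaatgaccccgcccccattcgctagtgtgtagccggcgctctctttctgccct
Emcn: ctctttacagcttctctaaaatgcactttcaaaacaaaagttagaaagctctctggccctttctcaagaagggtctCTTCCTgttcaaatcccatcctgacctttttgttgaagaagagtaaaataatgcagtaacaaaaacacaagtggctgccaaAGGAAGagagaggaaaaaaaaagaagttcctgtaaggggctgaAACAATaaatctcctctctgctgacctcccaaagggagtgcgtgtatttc
Notch4: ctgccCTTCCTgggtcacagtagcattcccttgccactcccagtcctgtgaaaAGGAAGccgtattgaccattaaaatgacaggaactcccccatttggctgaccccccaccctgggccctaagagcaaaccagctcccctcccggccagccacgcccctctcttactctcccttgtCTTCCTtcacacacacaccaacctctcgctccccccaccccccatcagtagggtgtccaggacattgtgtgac
Emcn held 2 ETS runs and 1 SOX run, Notch4 held 3 ETS runs, the Egfl7 start shown held 1, and Kdr held none of these letters. Over the members, 9 of 17 windows (52.9%) held ETS letters and 3 of 17 (17.6%) held SOX letters. Of all 32851 windows of the same length, 39.2% and 9.40% did. Counted by gene, 8 of 13 members (61.5%) held ETS letters before at least 1 start, and 3 of 13 (23.1%) SOX letters. Of all 27025 genes the shares were 42.5% and 10.9%. A match of letters is not a binding site.

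**Figure D3:**
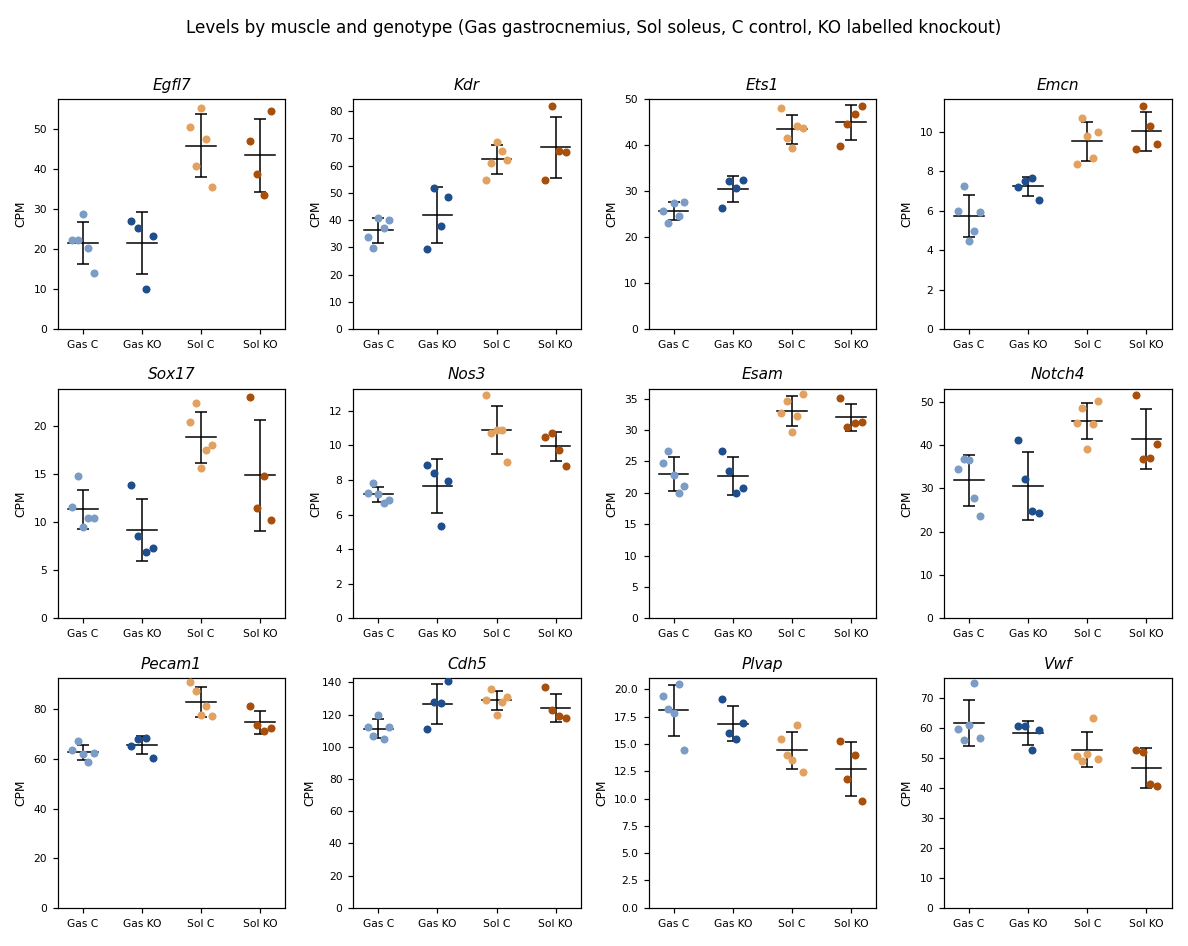
Level in CPM of 12 members in every library of the 4 groups, with the mean and SD of each group in black. The 5 soleus controls sit above the 5 gastrocnemius controls in the panels from Egfl7 to Pecam1, and the muscles overlap for Cdh5, Plvap and Vwf.

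The same comparison was made in the libraries labelled knockout, none of which entered the means of the control comparison. Of the 32 members 14 were higher and 3 lower in soleus, together 53.1%, against 37.8% of all genes (19.2% higher and 18.5% lower). The median was 0.20 for the members and 0.03 for all genes. The 14 higher members were all among the 20 higher in controls. The 6 called higher in controls and not here were Cdh5, Erg, Fli1, Flt4, Gpihbp1 and Robo4, with Cdh5 at -0.03 (95% interval -0.18 to 0.12). The difference between the comparisons was tested as the difference of knockout effects below, and no member passed.

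Egfl7 again had the largest log2 fold change, 1.02 (SE 0.27). It read 27.0, 25.3, 10 and 23.1 CPM in gastrocnemius knockouts and 46.8, 38.7, 33.5 and 54.4 CPM in soleus knockouts. Kdr read 29.5, 51.7, 38.0 and 48.4 CPM against 54.8, 81.8, 65.2 and 65.0 CPM, a log2 fold change of 0.67 (SE 0.15). For both genes the groups did not overlap, as for 8 members with soleus above and 1 (Plvap) with soleus below, where 32.4% of all genes had groups apart (16.5% above and 15.9% below). Ets1 read 26.4, 32.2, 30.8 and 32.4 CPM against 39.9, 44.6, 46.9 and 48.6 CPM, a log2 fold change of 0.56 (SE 0.08). Emcn read 7.20, 7.51, 7.64 and 6.55 CPM against 9.12, 11.3, 10.3 and 9.39 CPM, a log2 fold change of 0.47 (SE 0.12). Esam read 26.6, 23.4, 20 and 20.8 CPM against 35.1, 30.5, 31.1 and 31.3 CPM, a log2 fold change of 0.50 (SE 0.10). These 5 members were the ones whose calls held whichever 1 library was left out.

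Pecam1 read 65.0, 68.2, 68.3 and 60.4 CPM in gastrocnemius knockouts and 81.4, 73.6, 71.3 and 72.5 CPM in soleus knockouts, apart by a log2 fold change of 0.19 (SE 0.07). Cdh5 read 111, 128, 127 and 141 CPM against 137, 123, 119 and 118 CPM, with groups that overlapped widely. For the other leading members the knockout groups overlapped. Sox17 read 13.9, 8.59, 6.97 and 7.31 CPM against 23.1, 11.5, 14.8 and 10.3 CPM (log2 fold change 0.70, SE 0.25). Nos3 read 8.88, 8.42, 5.35 and 7.96 CPM against 10.5, 10.7, 9.72 and 8.82 CPM (0.38, SE 0.13). Notch4 read 41.2, 32.1, 24.7 and 24.4 CPM against 51.6, 36.7, 37.1 and 40.2 CPM (0.44, SE 0.17). In all 3 genes libraries 2 and 35 were the highest or next to the highest of their groups.

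Lower in soleus knockouts were Cldn5 at -0.42 (SE 0.15), Plvap at -0.41 (SE 0.13) and Vwf at -0.32 (SE 0.10), of which Plvap alone had groups that did not overlap. With library totals the median was 0.43 for the members and 0.27 for all genes, and the split was 20 higher and 0 lower, against 6339 higher and 1751 lower among all genes, with Cldn5 and Plvap each at -0.18 and Vwf at -0.09. Without soleus knockout 35 only 7 of the 32 members were called, against 33.5% of all genes. There were 10 without gastrocnemius knockout 6, 7 or 9 in turn, against 34%, 31.7% and 32.4% of all genes. Without soleus knockout 40 there were 11, against 34.9% of all genes. In none of these fits was the members' share above that of all genes.

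Genes around the members were compared from lists of related function. Of 42 angiogenic ligands, receptors and regulators, 20 were higher and 5 lower in soleus controls (59.5%, against 49.3% of all genes), with a median log2 fold change of 0.38. The 3 with the largest differences were Sema3a, a repellent guidance ligand, at -2.21 (SE 0.25), the growth factor Fgf1 at 1.52 (SE 0.10) and the Tek ligand Angpt1 at 1.43 (SE 0.11). Vegfa, the ligand of Kdr and Flt1, averaged 158 ± 13.1 CPM in gastrocnemius controls and 308 ± 54.8 CPM in soleus controls (SD, n = 5 each), without overlap. Its log2 fold change was 0.96 (SE 0.13; edgeR adjusted p = 7.72e-06) in controls and 1.01 (SE 0.15; edgeR adjusted p = 2.59e-05) in knockouts. Of 38 further endothelial genes tested, 19 were higher and 1 lower in soleus controls (52.6%, near the 49.3% of all genes), with the same median as the members, 0.39. The largest differences were those of Palmd at 1.03 (SE 0.11), Arhgef15 at 0.89 (SE 0.08) and Cyyr1 at 0.87 (SE 0.10). Etv2, an embryonic vessel factor, had 0 counts in both gastrocnemius groups.

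Markers of other cells were compared between the muscles, where 49.3% of all genes were called. From gastrocnemius to soleus controls the summed level of 8 capillary genes, which include fat-handling genes shared with muscle fibres, ran from 1180 to 1250 CPM against 2810 to 3250 CPM, with 5 of 8 higher. The 8 pericyte genes ran from 763 to 875 against 785 to 894 CPM, with 4 higher and 1 lower, and the 6 smooth muscle genes from 179 to 264 against 208 to 246 CPM with none called. The 7 fibroblast genes ran from 1880 to 3110 against 1000 to 1580 CPM with 4 lower, the 8 macrophage genes from 82.9 to 115 against 53.6 to 89.0 CPM with 3 lower, and the 6 red blood cell genes from 160 to 329 against 204 to 326 CPM with 1 higher. The 7 lymphatic genes, which include the members Lyve1 and Flt4, ran from 40.8 to 50.9 against 81.6 to 91.8 CPM, with Ccl21a at 0 in the gastrocnemius controls. Of the 6 lymphatic genes tested 3 were higher (Prox1, Reln and Flt4) and 1, Mmrn1, was lower at -0.81, with a median of -0.05, and most of the difference in the sum was that of Prox1. Prox1, a lymphatic transcription factor that slow muscle fibres also express, was singled out after its values were seen and averaged 4.81 ± 0.735 and 37.0 ± 4.35 CPM (SD, n = 5 each). The part of these cells in the members' differences was not tested.

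The knockout was then compared with control in each muscle. In gastrocnemius 0 of 32 members passed by edgeR, against 3.78% of the 16393 genes tested. An unadjusted p under 0.05 was found for 6 of 32 (18.8%), a share near that of all genes (18.6%). DESeq2 called 1 member (Aplnr), against 7.53% of all genes, and limma voom 0, against 3.51%. The median log2 fold change was 0.05 for the members and 0.02 for all genes, and the summed CPM of the members was 1030 ± 46.6 (SD, n = 5) in controls and 1050 ± 79.6 (SD, n = 4) in libraries labelled knockout. For 30 members the 95% interval lay within a 2-fold change either way, and for 25 within 1.5-fold. The exceptions at 2-fold were Aplnr and Lyve1. Among all genes the calls were 290 higher and 329 lower, or 347 and 163 with library totals.

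The 6 members with an unadjusted p under 0.05 were Aplnr at 1.02 (95% interval 0.33 to 1.71), Cldn5 at 0.33 (0.03 to 0.63), Emcn at 0.33 (0.04 to 0.62), Fli1 at 0.27 (0.09 to 0.44), Ets1 at 0.25 (0.07 to 0.42) and Cdh5 at 0.19 (0.03 to 0.34). Fli1 had the smallest adjusted p (edgeR, 0.0865). It read 19.2, 21.9, 17.9, 17.4 and 20.2 CPM in controls and 22.9, 24.5, 23.5 and 22.1 CPM in libraries labelled knockout. It was the 1 member whose groups did not overlap, where 8.41% of all genes had groups apart. Kdr gave 0.21 (-0.13 to 0.55), Flt1 -0.21 (-0.53 to 0.12) and Pecam1 0.07 (-0.07 to 0.20).

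Library 2 differed from the other gastrocnemius libraries labelled knockout for several members. Without it 5 members passed by edgeR, and the calls over all genes went from 619 to 1080, or 6.55% of those tested. In that fit Aplnr at 1.26, Cldn5 at 0.45 and Ets1 at 0.30 were higher, and Sox17 at -0.58 and Flt1 at -0.40 were lower. Without control 3, Fli1 passed at 0.32. Flt1 read 107, 115, 110, 104 and 104 CPM in controls and 128, 94.6, 69.3 and 81.7 CPM in libraries labelled knockout, so that library 2 was above and the other 3 below all controls.

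**Figure D4:**
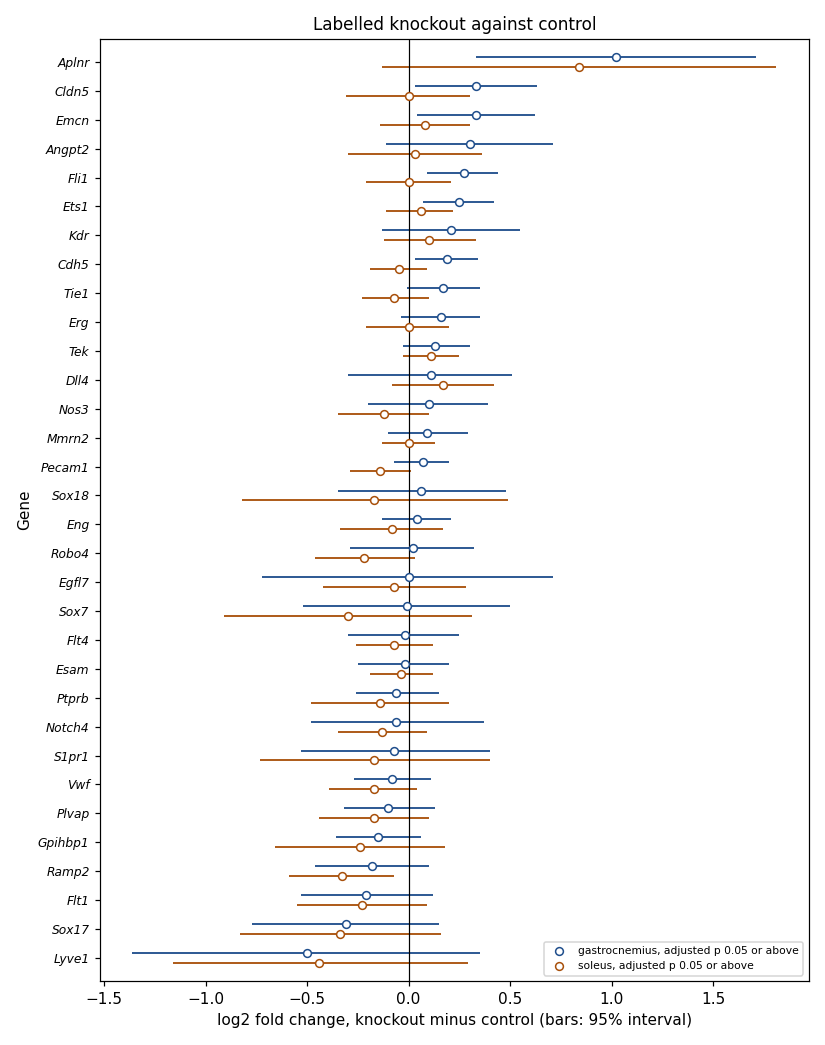
Log2 fold change of libraries labelled knockout over controls for each of the 32 genes in gastrocnemius (blue) and soleus (brown), with 95% intervals. Every point is open because no member passed at an edgeR adjusted p under 0.05, and Aplnr lies furthest right in both muscles, at 1.02 and 0.84.

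In soleus 0 of 32 members passed by edgeR, DESeq2 or limma voom, against 0.0553% of 18087 genes by edgeR, and 1 member, Ramp2, had an unadjusted p under 0.05 (3.12%, against 8.19% of all genes). Ramp2 gave -0.33 (95% interval -0.59 to -0.07; edgeR adjusted p = 0.487) and read 27.3, 31.6, 23.2, 22.4 and 24.1 CPM in controls and 25.3, 18.1, 19.3 and 18.7 CPM in libraries labelled knockout. Library 35 alone lay among the controls. Ramp2 shares 1103 exon bases with Vps25 on the same strand, a gene with a mean count 1.125% of that of Ramp2. The Ramp2 count is uncertain to the extent that shared reads were assigned to it or left out. The median of the members was -0.08 and that of all genes 0.00. The summed CPM of the members was 1360 ± 68.6 (SD, n = 5) in controls and 1270 ± 149 (SD, n = 4) in libraries labelled knockout. For 30 members the interval lay within 2-fold and for 24 within 1.5-fold. Pecam1 gave -0.14 (-0.29 to 0.01), Cdh5 -0.05 (-0.19 to 0.09) and Kdr 0.10 (-0.12 to 0.33).

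Whether the knockout effect differed between muscles (soleus effect less gastrocnemius effect) was tested next, and it passed for 0 of 32 members by edgeR, against 0.0703% of all genes. An unadjusted p under 0.05 was found for 3 members by edgeR, 2 by limma voom and 0 by DESeq2, and none passed after adjustment by any of them. The 3 were Cdh5 at -0.24 (95% interval -0.44 to -0.03), Pecam1 at -0.22 (-0.41 to -0.02) and Fli1 at -0.27 (-0.54 to -0.01). Estimates were positive for 2 of the 32, Dll4 and Lyve1, and for 45.0% of all genes. The median was -0.12 for the members (-0.24 without soleus knockout 35) and -0.03 for all genes. The members with an unadjusted p under 0.05 were 9.38% of the 32, against 5.40% of all genes. For 28 members the interval lay within 2-fold.

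The related lists gave 1 call in the knockout comparisons. Plxnd1, a semaphorin receptor of endothelium, was 1 of 42 angiogenic signalling genes to pass in gastrocnemius (2.38%, against 3.78% of all genes). Its log2 fold change was 0.32 (SE 0.08; edgeR adjusted p = 0.0382). It read 93.2, 93.0, 107, 85.2 and 90.3 CPM in controls and 102, 125, 119 and 119 CPM in libraries labelled knockout, where library 2 overlapped control 4. The call was lost without control 1, 3, 5 or 8 or knockout 6, 7 or 9, with log2 fold changes from 0.28 to 0.32. In soleus 0 of 42 passed, against 0.0553% of all genes. Of the 42, 11 had an unadjusted p under 0.05 in gastrocnemius and 5 in soleus. Both shares were above those of all genes, 18.6% and 8.19%. DESeq2 called 5 of 42 in gastrocnemius and 1 in soleus, against 7.53% and 0.918% of all genes. Vegfa gave -0.08 (SE 0.15) in gastrocnemius and -0.03 (SE 0.11) in soleus. Of the 38 further endothelial genes 0 passed by edgeR in either muscle. An unadjusted p under 0.05 was found for 8 in gastrocnemius and 2 in soleus, against 18.6% and 8.19% of all genes. DESeq2 called 3 in gastrocnemius and 0 in soleus, against the same 7.53% and 0.918% of all genes.

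Among the marker lists, in gastrocnemius libraries labelled knockout Ptprc (the leukocyte antigen CD45) was higher by 0.99 (SE 0.15) and Pax7, of satellite cells, by 0.85 (SE 0.18). Cdh15, also on the satellite cell list, was lower at -0.32 (SE 0.08). Of the 4 genes on that list 3 had positive estimates, and the median log2 fold change was 0.74. All 4 had an unadjusted p under 0.05 by edgeR, against 18.6% of all genes. The summed satellite cell genes averaged 28.6 CPM in gastrocnemius controls and 28.2 CPM in these libraries, a sum that hides these opposite directions. The slow-fibre light chain Myl2 was lower, at -0.95 (SE 0.16). The summed lymphocyte genes ran from 9.29 to 11.7 CPM in these libraries against 4.25 to 6.39 in controls. The macrophage genes ran from 104 to 186 against 82.9 to 115 CPM. None was called, and 6 of 8 had an unadjusted p under 0.05, against 18.6% of all genes. Their part in the members' values was not tested.

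Aplnr and Lyve1, whose intervals reached beyond a 2-fold change in both muscles, are given by library, a choice made after their values were seen. Aplnr is the receptor of apelin on capillary and venous endothelium. It read 10.8, 7.12, 9.41, 7.20 and 7.78 CPM in gastrocnemius controls and 7.96, 15.7, 19.8 and 25.4 CPM in gastrocnemius libraries labelled knockout. Libraries 6, 7 and 9 were above all 5 controls, and library 2 was among them (log2 fold change 1.02, SE 0.30; edgeR adjusted p = 0.111). In soleus it read 11.2, 8.21, 12.1, 10.3 and 12.8 CPM in controls and 7.99, 15.2, 15.8 and 38.7 CPM in libraries labelled knockout. Libraries 39, 40 and 42 were above all 5 controls, and library 35 was below them (log2 fold change 0.84, SE 0.42; edgeR adjusted p = 0.674). The difference between the muscles' effects was -0.19, with a 95% interval from -1.34 to 0.96.

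Lyve1 read 11.7, 10.7, 9.56, 8.71 and 9.82 CPM in gastrocnemius controls and 12.7, 6.38, 6.95 and 2.62 CPM in libraries labelled knockout. Library 2 was above and the other 3 were below all controls, with a log2 fold change of -0.50 (95% interval -1.36 to 0.35). In soleus it read 9.93, 9.93, 5.37, 5.66 and 5.30 CPM in controls and 8.55, 4.51, 5.36 and 3.01 CPM in libraries labelled knockout. Control libraries 34 and 36 were highest and library 42 lowest, with a log2 fold change of -0.44 (-1.16 to 0.29). In each muscle the knockout library with the most Aplnr, 9 and 42, had the least Lyve1. Sox17 was highest of the knockouts in libraries 2 and 35, at 13.9 and 23.1 CPM, where Aplnr was lowest. Libraries 2 and 35, and 9 and 42, stand at the same places in the title orders of their muscles, and the labels do not state whether they share mice.

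**Figure D5:**
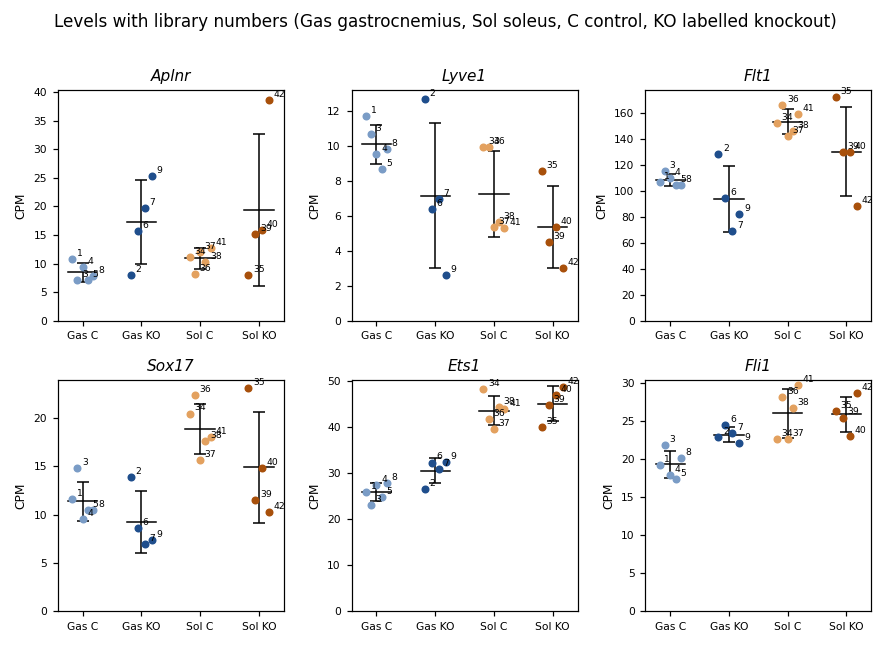
Level in CPM of 6 members in every library, with the library number beside each point and the mean and SD of each group in black. Libraries 2 and 35 have the lowest Aplnr and the highest Lyve1, Flt1 and Sox17 among the libraries labelled knockout of their muscle.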

How the data were processed

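Total RNA of 18 mouse muscle libraries was depleted of ribosomal RNA and sequenced, per the labels. The files deposited hold a read count for each Ensembl gene. The submitters' processing notes name bcl2fastq, the aligner STAR (2.5.1a), Subread with featureCounts (1.4.6-p5) and the build GRCm38. Whether counting used strand or multi-mapped reads is not stated in the sources used here. Deposited CPM and RPKM columns were not used.

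The tests were run in edgeR 4.0.16 (R 4.3.3) on TMM-scaled counts of genes kept by filterByExpr (minimum count 10, minimum total 15). A robust quasi-likelihood fit was used, with p-values adjusted by Benjamini-Hochberg over all genes tested (threshold 0.05). Knockout comparisons used the 9 libraries of a muscle, and comparisons of muscles and the difference of knockout effects used all 18. The script was tested on simulated data whose planted changes were larger than those of nearly all members, so recovery of smaller changes was not tested. Alternatives were RLE scaling, library totals, DESeq2 1.42.0, limma 3.58.1 (voom), no filter on low counts, other libraries in the fit, leaving out each library, and a replicate block added after seeing the data. CPM levels use TMM-scaled library sizes and are given as mean ± SD. Intervals are 95% intervals of the fit, and "2-fold" means the log2 interval lay inside that change. No 2 libraries of a group came close to sampling noise (chi-square per gene from 19.6 to 140), and all were kept apart.

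Every member could be named. By rule, values by library were given for the 8 called members with the largest difference between muscles in controls and for Pecam1, Cdh5 and Kdr. Those of Fli1, Flt1, Ramp2, Aplnr and Lyve1 were added after their values were seen. From the related lists were named every gene called in a knockout comparison, the 3 with the largest differences between muscles, and Vegfa. The other lists were markers of capillary, arterial, venous, lymphatic, pericyte, smooth muscle, fibroblast, macrophage, lymphocyte, platelet, red blood cell, adipocyte, satellite cell, Schwann cell, fast fibre and slow fibre identity. The members and lists were chosen with earlier results of these data known.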

Additional observations from a re-analysis of the deposited data

Results flagged for a closer look

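Of 132 groups of values (each member in each group, and each group's summed level), 7 had a highest or lowest library far from the others by Dixon's criterion, where chance gives about 1 in 20. Vwf was marked in 3 groups. Gastrocnemius control 5 read 74.8 CPM against 55.9 to 60.7 in the other controls, gastrocnemius knockout 7 read 52.4 CPM against 59.3 to 60.6, and soleus control 38 read 63.1 CPM against 49.0 to 51.3. Tie1 was low in gastrocnemius control 5, at 29.5 CPM against 36.6 to 39.2. Among gastrocnemius libraries labelled knockout, Eng was high in library 2, at 50.8 CPM against 47.8 to 48.1, and Erg was high in library 9, at 16.4 CPM against 14.1 to 14.4. Ramp2 was high in soleus knockout 35, at 25.3 CPM against 18.1 to 19.3.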

How the results depend on the processing

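The number of members called between muscles in controls, 21, stayed between 20 and 27 under the other settings and between 18 and 22 with 1 library left out. Over all genes the calls in controls, 9122, ran from 8724 to 10508 and from 8360 to 9356 in the same order. In libraries labelled knockout the 17 fell to 11 with no filter on low counts, where 19.8% of all genes were called. They fell to 10 with only the 2 groups in the fit, where 33.4% of all genes were called. With 1 library left out the members called ran from 7 to 17, and the calls over all genes from 5998 to 7108. In gastrocnemius the knockout called 1 member by DESeq2 and from 0 to 5 with 1 library left out, and in soleus and in the difference of effects it called 0 under every setting run. Over all genes the gastrocnemius calls, 619, ran from 510 to 1235 (206 to 1080 with 1 library left out), the soleus calls, 10, from 10 to 166 (3 to 66), and those of the difference, 13, from 11 to 52 (2 to 23). Plxnd1, at -0.22 between the muscles in controls, was at 0.05 with library totals, where the median of all genes moved from 0.08 to 0.35. The cause was not tested. No label pairs the libraries, but the title numbers of the muscles run in the same genotype order 33 apart, which was noticed after the data were seen. Over 9 such pairs the deviations from group means correlated across genes at 0.047 to 0.299 (4 pairs over 0.1), and 18 of 18 libraries correlated best with their match among those of the same genotype, a hint from the data and not the design. With these pairs as a replicate block, an alternative added after seeing the data, 27 members were called between muscles in controls, against 51.6% of all genes. In knockouts 20 members were called, against 40.7% of all genes. The difference of effects was called for 0 members (6 at an unadjusted p under 0.05) and for 32 of all genes (0.173%). The reported fits treat the muscles as independent. The lowest count of a member in a library was 72, for Angpt2, and the part of depth in the intervals was not tested. With 4 or 5 libraries a group, intervals for Aplnr and Lyve1 reached beyond a 2-fold change in both knockout comparisons.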

Other observations

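Markers of vessel type were called in both directions between the muscles in controls, where 49.3% of all genes were called. Of 8 arterial genes 2 were higher and 1 lower in soleus (median log2 fold change 0.32), and of 6 venous genes 2 were higher and 1 lower (median -0.30). Their summed levels ran from 67.6 to 71.2 CPM in gastrocnemius and 78.1 to 87.7 CPM in soleus for the arterial genes, and from 81.5 to 99.4 and 89.3 to 107 CPM for the venous genes. The lists share Hey1 and Unc5b, and Nrp2, with the angiogenic signalling genes, and the venous list shares Selp and Vcam1 with the further endothelial genes. In the knockout comparisons 0 of the 8 arterial and 0 of the 6 venous genes passed by edgeR in either muscle. An unadjusted p under 0.05 was found for 1 and 2 in gastrocnemius, against 18.6% of all genes. It was found for 1 and 2 in soleus, against 8.19% of all genes.

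Of 5 platelet genes 1 was higher and 1 lower in soleus controls, with summed levels from 4.54 to 5.62 and 4.96 to 5.67 CPM. Of 5 adipocyte genes none was called in any comparison by edgeR, with 1 at an unadjusted p under 0.05 in the gastrocnemius knockout comparison (13.9 to 49.2 and 20.1 to 40.6 CPM in gastrocnemius and soleus controls). Of 4 satellite cell genes 1 was lower in soleus controls (26.5 to 30.9 and 21.8 to 26.9 CPM), as were 3 of 5 Schwann cell genes (214 to 371 and 66.9 to 239 CPM) and 1 of 5 lymphocyte genes tested (4.25 to 6.39 and 3.93 to 7.08 CPM).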
